A study of Mus musculus with 6 samples.

Results

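The genes of cardiac calcium handling and excitation-contraction coupling were examined in left ventricular RNA of male C57/Bl6 mice given AAV9-Rbm24 (n = 3 hearts) or AAV9-GFP (n = 3 hearts). The module was set as a list of 41 gene symbols, and each gene was represented by the array's transcript cluster that carries that 1 symbol, the one with the highest mean over the 6 arrays where there were several. A cluster of their own was found for 37 of the 41, among 30738 genes with such a cluster in all, and none of the 37 had more than 1. Atp2b4 shares its cluster with a microRNA gene and was not named from it, and Itpr1, Calm2 and Calm3 were not analysed here. All mice were wild type and were given 4000000000000 viral genomes by intraperitoneal injection when 1 week old, and hearts were collected 2 weeks after that. The Rbm24 virus encodes the mouse protein with an N-terminal flag tag under a CMV promoter, which is not restricted to a cell type, and the control virus encodes GFP in its place. By staining, the paper found the tagged protein in a minority of cardiomyocytes, a share that it says may be underestimated. Each heart was hybridised to 1 Affymetrix Mouse Transcriptome Array 1.0, and the values are log2 signals summarised per cluster with RMA, so that a difference of 1 is a doubling and all exons and isoforms of a gene are merged into 1 value.

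Every heartbeat starts when voltage-gated calcium channels of the surface membrane and its T-tubules admit a small amount of calcium, which opens ryanodine receptors on the adjoining sarcoplasmic reticulum and releases the stored calcium onto the myofilaments. Relaxation follows when the SERCA pump, restrained by phospholamban, returns calcium to the store and the sodium-calcium exchanger expels the remainder across the surface membrane. Junctophilins hold both membranes together, calsequestrin and its partners buffer and gate the store, and calmodulin with CaM kinase II tunes most of these steps. In failing and hypertrophied hearts this machinery is known to be remodelled, both in its protein levels and in its phosphorylation.

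No gene of the module passed an adjusted p of 0.05 in limma, a linear model with variances moderated across all clusters, in either direction, where 0.241% of the 65956 clusters tested were higher and 0.0258% were lower. At an unadjusted p under 0.05, 5 of the 35 genes with a measurable difference had lower means in the AAV9-Rbm24 hearts (14.3%, against 4.33% of all clusters) and none had a higher mean (against 4.08% of all clusters). The 5 were the skeletal muscle chloride channel Clcn1, the calcium channel auxiliary subunit Cacna2d1, the cardiac ryanodine receptor Ryr2, the junctophilin Jph1 and the histidine-rich calcium-binding protein Hrc of the store. Without AAV9-GFP replicate 2, the array that stood farthest from the rest, 7 genes were lower (the same 5, Jph2 and Mcu) and 0 higher, where 4.7% of all clusters were lower and 5.22% higher in that fit. Cacna2d1, Jph1, Hrc and Clcn1 were among the lower genes with each array left out in turn, whereas Ryr2 was not without AAV9-GFP replicate 3, AAV9-Rbm24 replicate 1 or AAV9-Rbm24 replicate 2. An analysis of variance per cluster, the test that the methods of the study name, also passed no gene after adjustment, and at an unadjusted p under 0.05 it gave 5 lower genes (Cacna2d1, Jph1, Hrc, Camk2a and Clcn1) and 2 higher ones (Cacna1d and Sri). These are 14.3% and 5.71% of the 35 genes, where the analysis of variance passed 3.77% of all clusters as lower and 4.14% as higher. The promoters of the 5 genes that were lower at an unadjusted p under 0.05 in limma are shown as a description, since none passed after adjustment. Windows from 250 bases before to 50 bases after the start were found for 4 of the 5 in RefSeq (GRCm38.p6), and capitals mark matches to the E-box (CANNTG), the MEF2 motif and the TATA box (TATAAA), searched on both strands. The windows are chr6:42286435-42286734 on the plus strand for Clcn1, chr13:12106896-12107195 on the minus strand for Ryr2, chr7:45335019-45335318 on the plus strand for Hrc and chr5:15934441-15934740 on the plus strand for Cacna2d1.
Clcn1: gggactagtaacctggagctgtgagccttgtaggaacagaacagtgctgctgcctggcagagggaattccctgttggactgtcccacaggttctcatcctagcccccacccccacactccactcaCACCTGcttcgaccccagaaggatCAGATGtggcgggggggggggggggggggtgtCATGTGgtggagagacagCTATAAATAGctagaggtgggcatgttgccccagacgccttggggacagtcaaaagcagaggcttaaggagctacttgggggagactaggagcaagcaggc
Ryr2: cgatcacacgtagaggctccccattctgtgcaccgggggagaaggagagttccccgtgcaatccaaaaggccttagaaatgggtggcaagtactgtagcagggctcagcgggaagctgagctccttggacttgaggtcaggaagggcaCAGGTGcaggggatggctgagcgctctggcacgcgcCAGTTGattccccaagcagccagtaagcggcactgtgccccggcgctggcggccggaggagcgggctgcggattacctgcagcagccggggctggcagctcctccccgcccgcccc
Hrc: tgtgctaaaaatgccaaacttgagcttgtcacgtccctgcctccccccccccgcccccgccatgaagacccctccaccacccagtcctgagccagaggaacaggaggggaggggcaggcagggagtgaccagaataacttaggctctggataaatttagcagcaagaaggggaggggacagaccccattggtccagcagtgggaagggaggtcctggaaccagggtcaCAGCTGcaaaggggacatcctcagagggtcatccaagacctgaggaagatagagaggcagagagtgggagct
Cacna2d1: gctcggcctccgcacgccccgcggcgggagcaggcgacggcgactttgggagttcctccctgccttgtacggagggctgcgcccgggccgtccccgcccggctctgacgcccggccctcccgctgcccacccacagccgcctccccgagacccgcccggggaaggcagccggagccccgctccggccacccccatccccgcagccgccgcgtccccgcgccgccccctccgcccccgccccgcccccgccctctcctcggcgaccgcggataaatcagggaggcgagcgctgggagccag
The Clcn1 window holds 3 E-boxes, 1 MEF2 match from base -51 to base -42 and a TATA box inside that match, the Ryr2 window 2 E-boxes, the Hrc window 1 E-box and the Cacna2d1 window no match to any of them. Of 32851 RefSeq windows of the same length, 72.3% hold an E-box, 3.19% a MEF2 match and 13.6% a TATA box. A match is a description of the letters and says nothing of binding in these hearts.

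Some facts of the arrays bear on all values. Array medians ran from 5.49 to 5.67, and AAV9-GFP replicate 2 stood apart on the first principal component, with a score of -64.3 against -9.7 to 41.4 for the other 5 arrays. The cluster of Rbm24 had signals of 14.58, 14.74 and 15.12 in the AAV9-Rbm24 hearts, against 13.95, 13.63 and 13.57 in the AAV9-GFP hearts. The difference was 2.14-fold (log2 difference 1.10, standard error 0.17, adjusted p = 0.0607 from limma). The paper reports a far larger rise of Rbm24 mRNA by qPCR at this dose and time, and Rbm24 protein by Western blot. Why the array value is smaller was not tested. Of 11 cardiomyocyte markers 9 were below the ceiling of the array and could be tested. Of the 9, Myh6 lay only 0.115 to 0.149 below the array maximum and had little room to move. None passed the adjusted threshold in limma or an unadjusted p under 0.05, and the median log2 difference of the 9 was -0.03. Groups did not overlap for 2 of the 9, both lower (Tnni3 at -0.20 and Myl3 at -0.18), where 7.71% of all clusters were separate in that direction. All 12 macrophage and monocyte markers were higher in every AAV9-Rbm24 heart than in every AAV9-GFP heart, and 6 of 12 were called in limma. Of 8 fibroblast markers 7 were likewise higher in every AAV9-Rbm24 heart, with 4 called, the exception being Tcf21 (log2 difference -0.03). Of all clusters, 7.01% were separate in that direction and 0.241% were called higher in limma. The log2 of the summed macrophage and monocyte signals was 15.17 to 16.42 in AAV9-Rbm24 hearts and 12.62 to 13.41 in AAV9-GFP hearts. For the fibroblast markers it was 17.28 to 17.63 and 16.28 to 16.46 in the same order. These sums rest most on the brightest markers, Lyz2 and Dcn. In bulk tissue, fewer cells of a type and less RNA per cell cannot be told apart, and the part that added macrophage and fibroblast RNA plays in the differences of the calcium handling genes was not tested.

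Clcn1, which carries the resting chloride conductance of skeletal muscle fibres, had the largest difference in size of the 35 genes. Its signals were 6.46, 6.55 and 6.46 in the AAV9-Rbm24 hearts, against 7.04, 7.24 and 7.28 in the AAV9-GFP hearts. The groups did not overlap, and the gap between them exceeded the range within each. The log2 difference was -0.69 (standard error 0.11, 95% interval -0.94 to -0.45), or 61.8% of the AAV9-GFP level, with an adjusted p of 0.0607 from limma. It was the only gene of the module past the thresholds of the methods, 1.5-fold or more with an unadjusted p below 0.05. The methods take that p from analysis of variance, whereas here it was taken from limma. Clcn1 was the only gene of the module past the thresholds with either test. With limma, 0.552% of all clusters passed in the lower direction and 1.23% in the higher one. The call depended on the setting, since Clcn1 passed among clusters with 1 gene symbol only (adjusted p = 0.0261 from limma), with a minimum mean signal of 6 (0.0375), with array weights (0.0464) and when fitted per gene (0.0255), while the alternatives together spanned 0.0255 to 0.364. All 3 AAV9-Rbm24 signals lay below the median of the 5222 negative control rows on the same array, which ran from 6.50 to 6.67 over the 6 arrays. The 95th percentile of the negative control rows ran from 9.93 to 10.32, above the signals of Clcn1 in both groups, so that neither group stood clear of background. The same held for Jph1, and for 21 of the 35 genes in all, on every array. An exact two-sided permutation test gave p = 0.1 for each of the 5 lower genes, and groups of 3 cannot give a smaller one.

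Among the genes of calcium entry, the pore subunit of the cardiac L-type channel and its auxiliary subunit had different values. Cacna1c, the pore through which most of the trigger calcium enters ventricular myocytes, had signals of 13.73, 13.66 and 13.53 in AAV9-Rbm24 hearts and 13.73, 13.63 and 13.66 in AAV9-GFP hearts. These overlap almost fully (log2 difference -0.03, 95% interval -0.26 to 0.20, adjusted p = 0.966 from limma). Cacna2d1, the extracellular subunit that brings the pore to the surface, had 13.43, 13.28 and 13.62 in AAV9-Rbm24 hearts, against 13.91, 13.74 and 13.88 in AAV9-GFP hearts. Every AAV9-Rbm24 heart was below every AAV9-GFP heart, with a log2 difference of -0.40 (standard error 0.12, 95% interval -0.68 to -0.13) that did not pass (adjusted p = 0.36 from limma). The cytosolic subunit Cacnb2 (log2 difference -0.16) and the T-type channel Cacna1h (-0.16) overlapped between groups. Cacna1d, the L-type pore of pacemaker cells, was low in signal, at 6.50, 6.63 and 6.58 in AAV9-Rbm24 hearts and 6.45, 6.35 and 6.47 in AAV9-GFP hearts. Its groups were separate by a margin that is small beside the signal, and its log2 difference was 0.15 (adjusted p = 0.743 from limma). On 5 of the 6 arrays Cacna1d lay below the negative control median.

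The T-type pore Cacna1g, a channel of the fetal ventricle and of conduction tissue, was split within the AAV9-Rbm24 group. Its signals were 7.94, 7.81 and 8.92 in the AAV9-Rbm24 hearts, against 8.37, 8.49 and 8.54 in the AAV9-GFP hearts. AAV9-Rbm24 replicates 1 and 2 lay below all AAV9-GFP hearts, and replicate 3 lay above them. The log2 difference of -0.24 (standard error 0.27, adjusted p = 0.859 from limma) became -0.59 without AAV9-Rbm24 replicate 3 (adjusted p = 0.215 from limma). In that fit Cacna1g also passed the thresholds of the methods with its limma p-value.

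At the release site, Ryr2 and Jph1 had lower means in AAV9-Rbm24 hearts. Ryr2, the channel that releases the stored calcium, had signals of 17.16, 16.98 and 17.36 in AAV9-Rbm24 hearts and 17.48, 17.40 and 17.71 in AAV9-GFP hearts. The groups were separate by a narrow gap, between AAV9-Rbm24 replicate 3 and AAV9-GFP replicate 2, and the log2 difference was -0.36 (standard error 0.14, 95% interval -0.68 to -0.05, adjusted p = 0.51 from limma). Its cluster lay 2.22 to 2.95 below the maximum of each array. Jph1, the junctophilin best known from skeletal muscle, had 9.23, 9.15 and 8.99 in AAV9-Rbm24 hearts, against 9.79, 9.49 and 9.44 in AAV9-GFP hearts. All AAV9-Rbm24 hearts were again lower, with a log2 difference of -0.45 (standard error 0.13, adjusted p = 0.34 from limma). Jph2, the junctophilin of the cardiac dyad, had 10.61, 10.19 and 10.56 in AAV9-Rbm24 hearts and 10.98, 10.29 and 11.01 in AAV9-GFP hearts. Here AAV9-GFP replicate 2 lay among the AAV9-Rbm24 hearts, and the log2 difference of -0.31 (standard error 0.21) was -0.54 without that array (adjusted p = 0.335 from limma). Sri, which encodes the ryanodine receptor regulator sorcin, had 8.80, 8.80 and 8.89 in AAV9-Rbm24 hearts and 8.72, 8.54 and 8.68 in AAV9-GFP hearts, separate groups with a log2 difference of 0.18 (adjusted p = 0.683 from limma). The inositol trisphosphate receptor Itpr2 and the T-tubule protein Bin1 had log2 differences of -0.09 and 0.09, with overlapping groups.

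Of the proteins of the store, Hrc stood apart. Hrc binds calcium in the lumen of the sarcoplasmic reticulum and contacts both the pump and triadin. Its signals were 13.48, 13.22 and 13.22 in the AAV9-Rbm24 hearts, against 13.80, 13.63 and 13.82 in the AAV9-GFP hearts. The groups did not overlap, and the log2 difference was -0.45 (standard error 0.12, 95% interval -0.72 to -0.18), or 73.4% of the AAV9-GFP level (adjusted p = 0.276 from limma). Trdn, which encodes triadin, the anchor between calsequestrin and the ryanodine receptor, had 13.04, 12.94 and 13.46 in AAV9-Rbm24 hearts and 13.49, 13.27 and 13.58 in AAV9-GFP hearts. AAV9-Rbm24 replicate 3 overlapped with the AAV9-GFP hearts, and the log2 difference of -0.30 (standard error 0.16) did not pass (adjusted p = 0.681 from limma). Casq2, the calsequestrin of cardiac muscle, had 17.07, 16.91 and 17.36 in AAV9-Rbm24 hearts and 17.23, 17.00 and 17.35 in AAV9-GFP hearts. These groups overlapped over most of their range (log2 difference -0.08, 95% interval -0.43 to 0.27, adjusted p = 0.928 from limma), and the value turned to 0.02 without AAV9-Rbm24 replicate 2. Asph, whose locus encodes junctin besides a hydroxylase of many cell types, had a log2 difference of -0.13.

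**Figure D1:**
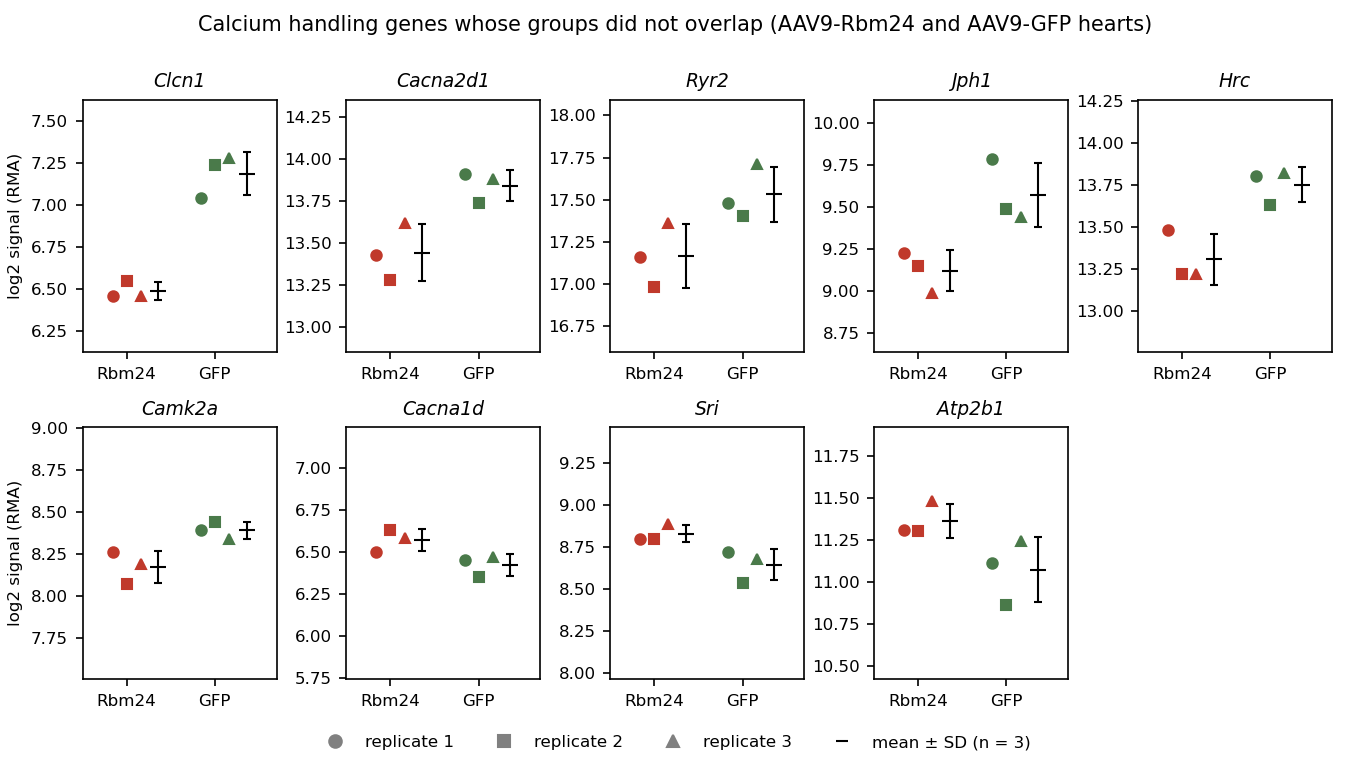
Log2 signals (vertical axis, RMA) of the 9 genes of the module whose AAV9-Rbm24 (left) and AAV9-GFP (right) hearts did not overlap. There is 1 point per heart, with point shape for the replicate number, and mean ± SD (n = 3) beside the points. In 6 genes (Clcn1, Cacna2d1, Ryr2, Jph1, Hrc and Camk2a) all AAV9-Rbm24 hearts lie lower, and in 3 (Cacna1d, Sri and Atp2b1) all lie higher.

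The central pair of relaxation could not be compared. Atp2a2, which encodes the SERCA pump of the heart, had signals of 19.89, 19.87 and 19.89 in AAV9-Rbm24 hearts and 19.89, 19.86 and 19.89 in AAV9-GFP hearts, within 0.045 to 0.065 of the highest value on each array. Pln, which encodes its inhibitor phospholamban, had 19.27 in all 3 AAV9-Rbm24 hearts and 19.27, 19.24 and 19.27 in AAV9-GFP hearts, at a constant 0.66 below the array maximum. Pln is 1 of 71 clusters that followed the array maximum within 0.005, and Atp2a2 was set aside with it because it lay within 0.1 of the maximum on every array, a limit chosen after its values were seen. No difference is given for either gene. A signal at the ceiling has no room to move, so these values do not show that pump or inhibitor stayed level. The paper names Pln among the genes with the largest splicing differences in these hearts and saw the difference by RT-PCR. Values that merge all isoforms cannot show it.

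The other genes of removal were mostly flat or divided within groups. Slc8a1, the sodium-calcium exchanger, had signals of 12.62, 12.29 and 13.47 in AAV9-Rbm24 hearts and 12.40, 12.29 and 13.32 in AAV9-GFP hearts. In both groups replicate 3 was about as far above its companions, so that the spread within the groups far exceeded the log2 difference of 0.12 (standard error 0.36, 95% interval -0.70 to 0.95, adjusted p = 0.959 from limma), whose sign turned without AAV9-GFP replicate 1 or 2 (-0.01 and -0.07) and without AAV9-Rbm24 replicate 3 (-0.22). Atp2b1, a calcium pump of the surface membrane, had 11.31, 11.30 and 11.48 in AAV9-Rbm24 hearts, against 11.11, 10.86 and 11.24 in AAV9-GFP hearts. Every AAV9-Rbm24 heart was higher, by a log2 difference of 0.29 (standard error 0.13, unadjusted p = 0.0515 and adjusted p = 0.598 from limma). Sln, which encodes the atrial SERCA inhibitor sarcolipin, had 5.65, 5.66 and 5.28 in AAV9-Rbm24 hearts and 5.37, 5.73 and 5.57 in AAV9-GFP hearts, at the level of the array medians. Its groups overlapped (log2 difference -0.03, adjusted p = 0.979 from limma), and the atrial light chains Myl7 and Myl4 were as dim, at 5.12 to 6.02 over all hearts. Of 5 atrial markers none passed the adjusted threshold in limma, and 1 was higher at an unadjusted p under 0.05, the natriuretic peptide gene Nppa (log2 difference 2.76, adjusted p = 0.149 from limma), which stressed ventricles also express. Atp2a3, a SERCA pump of non-muscle cells, had overlapping groups (log2 difference -0.06, adjusted p = 0.939 from limma). Of the 35 genes, 6 lay below the negative control median on every array: Ryr1, Ryr3, Atp2a1, Fkbp1b, Trpc6 and Sln. Of these, Ryr1 and Atp2a1 are the release channel and pump of skeletal muscle, and the log2 differences of the 6 lay between -0.12 (Trpc6) and 0.04 (Fkbp1b), where a change was not detectable at this signal.

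The 4 CaM kinase II genes all had lower means in the AAV9-Rbm24 hearts. Camk2d, the main cardiac form, had signals of 11.38, 11.21 and 11.56 in AAV9-Rbm24 hearts and 11.66, 11.43 and 11.66 in AAV9-GFP hearts, with 1 AAV9-Rbm24 heart inside the AAV9-GFP range (log2 difference -0.20, standard error 0.13, adjusted p = 0.732 from limma). Camk2a, best known as the neuronal form, had 8.26, 8.07 and 8.19 in AAV9-Rbm24 hearts, against 8.39, 8.44 and 8.34 in AAV9-GFP hearts, without overlap (log2 difference -0.22, standard error 0.10, adjusted p = 0.621 from limma). Camk2g and Camk2b had log2 differences of -0.17 and -0.09, with overlapping groups. Isoforms made by splicing, for which Camk2d is known, are merged in these values.

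Entry by routes other than voltage-gated channels showed little spread between groups. The store sensor Stim1 and its channel Orai1 had log2 differences of -0.05 (95% interval -0.28 to 0.18) and 0.02 (95% interval -0.19 to 0.24), and Orai1 had 7.74, 7.76 and 7.75 in AAV9-Rbm24 hearts and 7.79, 7.73 and 7.66 in AAV9-GFP hearts. The receptor-operated channel Trpc1 had a log2 difference of 0.00 (95% interval -0.41 to 0.42), with AAV9-Rbm24 replicate 3 at 8.30 and the other 5 hearts between 8.66 and 8.98. Mcu, the pore of the mitochondrial calcium uniporter, had 8.30, 8.38 and 8.42 in AAV9-Rbm24 hearts and 8.61, 8.24 and 8.64 in AAV9-GFP hearts, where AAV9-GFP replicate 2 lay below all others (log2 difference -0.13, 95% interval -0.43 to 0.17, adjusted p = 0.844 from limma).

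**Figure D2:**
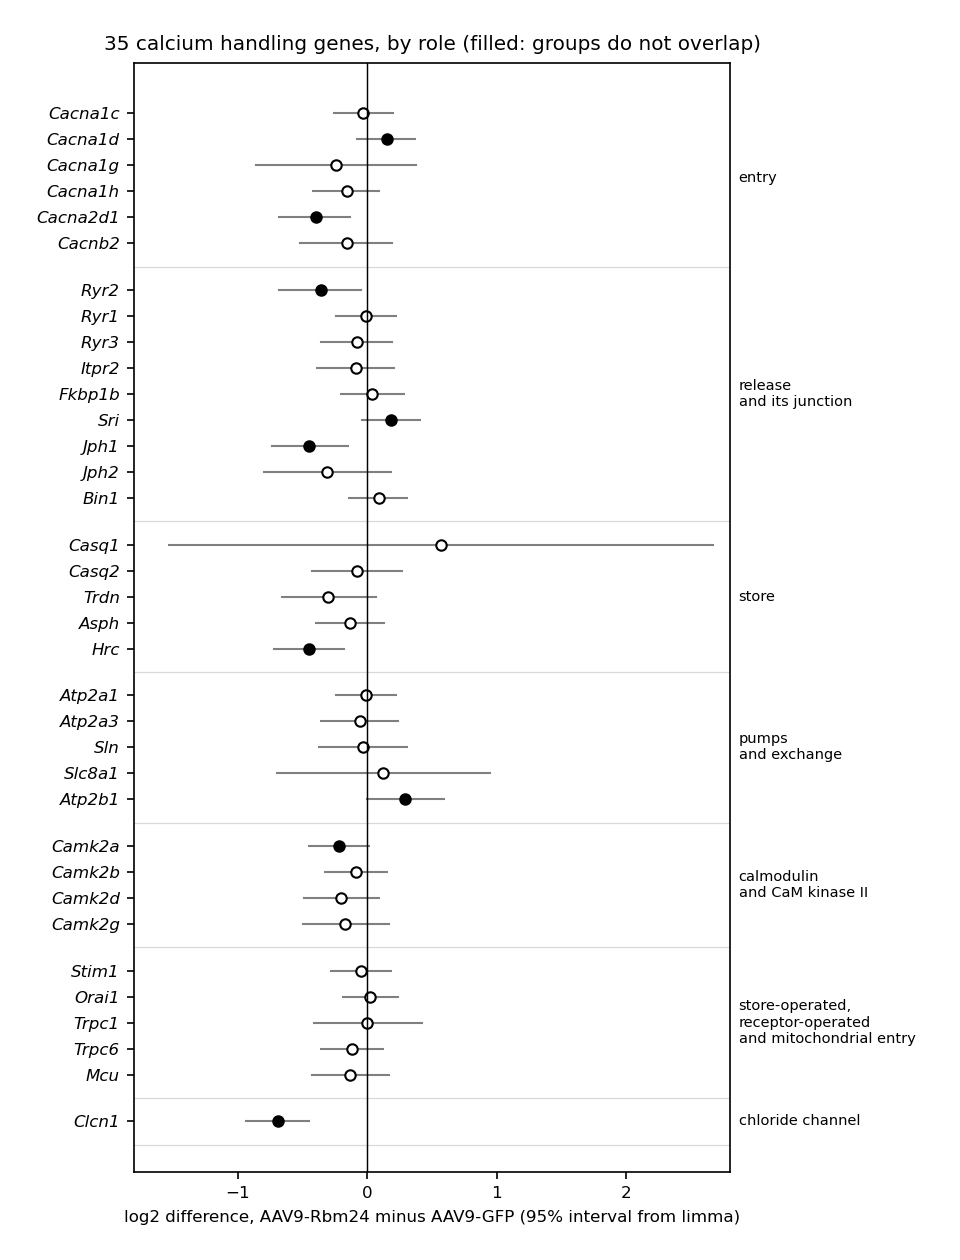
Log2 difference of AAV9-Rbm24 minus AAV9-GFP hearts (horizontal axis, points) with its 95% interval from limma (lines) for 35 genes of the module. Genes are grouped by role, with filled points where the groups did not overlap. Of the points, 24 lie within 0.2 of no difference, Clcn1 lies lowest at -0.69, and Casq1 has the widest interval, from -1.53 to 2.67.

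Casq1, the calsequestrin of skeletal muscle, varied more within groups than any other gene of the module. It had signals of 9.26, 9.19 and 12.75 in AAV9-Rbm24 hearts and 9.90, 9.02 and 10.57 in AAV9-GFP hearts. AAV9-Rbm24 replicate 3 stood far above the rest of its group, and the other 2 lay inside the AAV9-GFP range. The log2 difference of 0.57 (standard error 0.91, adjusted p = 0.914 from limma) turned to -0.60 without AAV9-Rbm24 replicate 3. Of 9 skeletal muscle markers, 8 lay between 4.60 and 6.31 on all arrays, below the negative control median of each, including the fast myosin Myh4 and the fast troponin Tnnt3. The exception was the fast myosin-binding protein Mybpc2, with 6.95, 7.10 and 7.83 in AAV9-Rbm24 hearts and 6.58, 6.22 and 6.76 in AAV9-GFP hearts. Replicate 3 was also highest in each group (log2 difference 0.78, standard error 0.24, adjusted p = 0.398 from limma). The groups of Mybpc2 did not overlap, and it passed the thresholds of the methods at 1.71-fold (unadjusted p = 0.0132 from limma). Of all clusters, 1.23% passed them in the higher direction. Only Casq1, Slc8a1 and Cacna1g spanned more than 1 on the log2 scale within a group, and in all 3 the highest heart was AAV9-Rbm24 replicate 3.

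**Figure D3:**
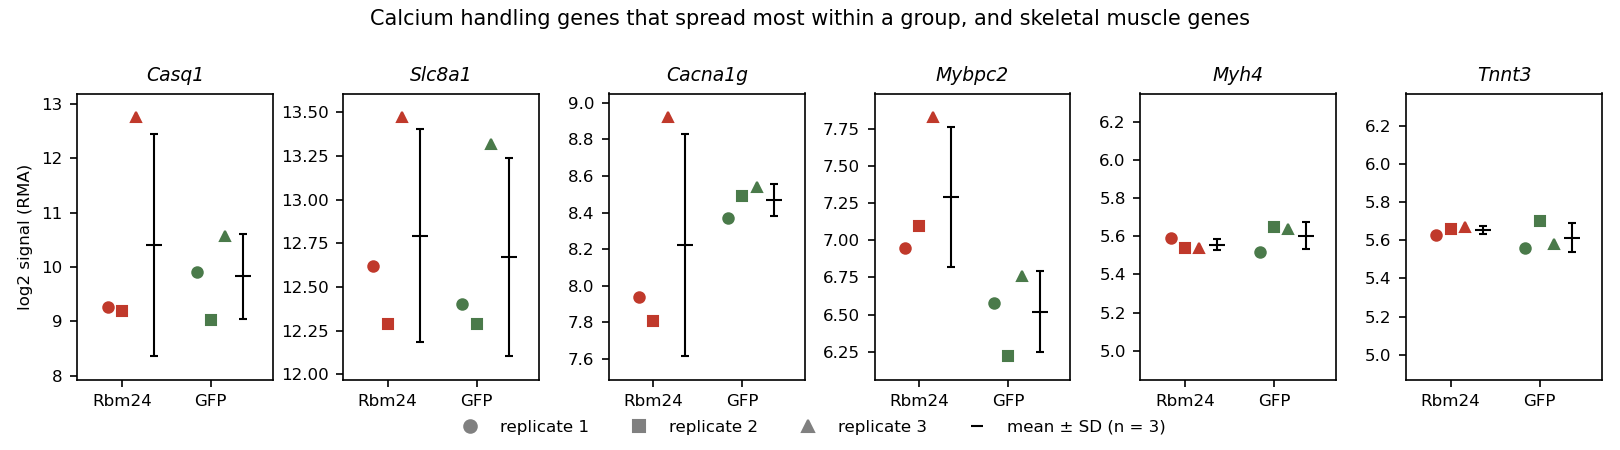
Log2 signals (vertical axis, RMA) of the 3 calcium handling genes that spread most within a group and of the skeletal muscle genes Mybpc2, Myh4 and Tnnt3, with 1 point per heart, AAV9-Rbm24 left of AAV9-GFP, and mean ± SD (n = 3). Replicate 3 (triangles) is the highest heart of its group in Casq1, Slc8a1, Cacna1g and Mybpc2, whereas Myh4 and Tnnt3 stay between 5.52 and 5.70.

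Across the 35 genes, 26 had a lower mean and 9 a higher mean in the AAV9-Rbm24 hearts, so that 74.3% of them were lower, against 57.1% of all clusters. Among clusters with a mean signal of at least 6, a class that holds 29 of the 35 genes, 45.7% were lower. The median log2 difference of the 35 was -0.086, beside -0.019 over all 30738 genes. Restricted to a mean signal of at least 6, it was -0.128 over 29 genes of the module, beside 0.018 over 27410 clusters, and 5 of the 29 were lower at an unadjusted p under 0.05 (17.2%, against 4.7% of those clusters) and none higher (against 7.74%). By role, the median was -0.18 for the CaM kinase II genes, -0.16 for voltage-gated entry, -0.13 for the store, -0.08 for release, -0.05 for other entry and -0.01 for pumps and exchange, and 24 of the 35 genes lay within 0.20 of no difference. Groups did not overlap for 6 lower genes (17.1%) and 3 higher ones (8.57%), where 7.71% and 7.01% of all clusters were separate in these directions. Members of 1 pathway in the same 6 hearts vary together, so these counts describe the module and are not a test of it. The heatmap of single hearts shows an order of hearts that part of the genes shared. Replicate 2 was the lowest heart of both groups for Cacna2d1, Ryr2, Jph2, Casq2, Trdn and Camk2d, among others. Other genes had another order. AAV9-Rbm24 replicate 3 was the lowest of its group for Jph1, and AAV9-Rbm24 replicate 2 the highest for Clcn1. AAV9-GFP replicate 2 was the highest of its group for Cacna1h and Camk2a.

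**Figure D4:**
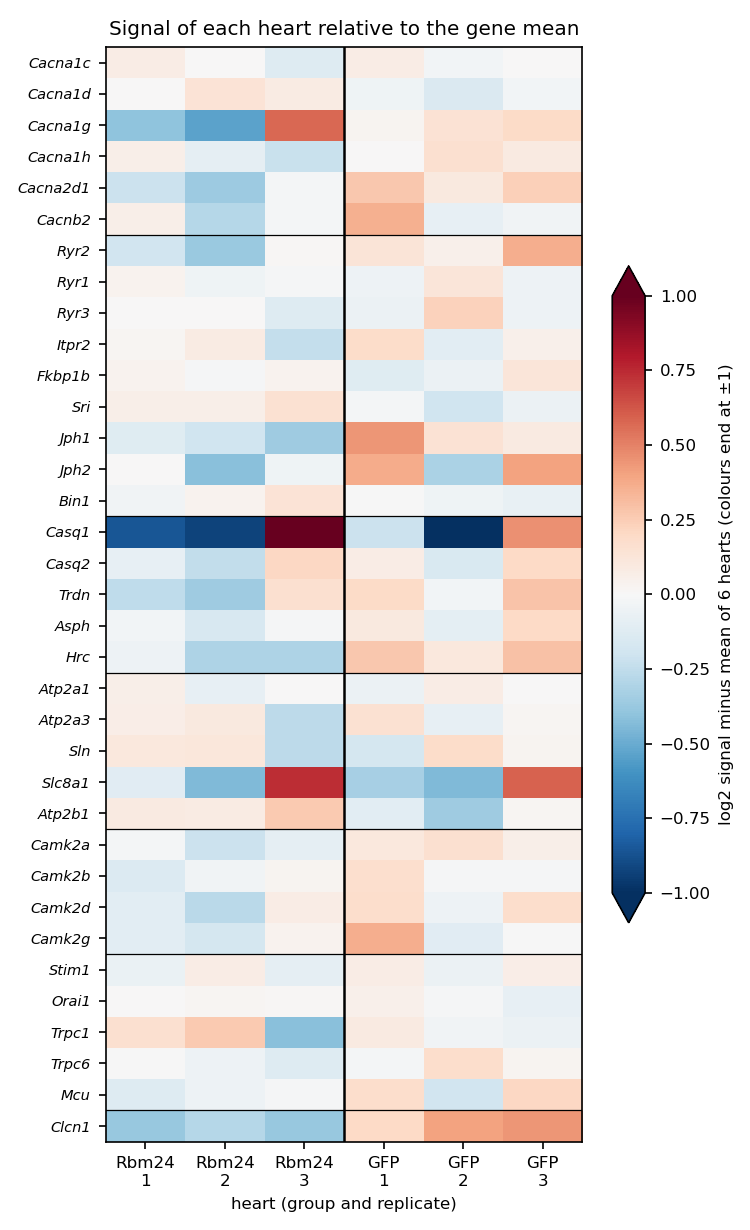
Log2 signal of each heart minus the mean of the 6 hearts (colour, ending at ±1) for 35 genes of the module in rows. Hearts are in columns, AAV9-Rbm24 left of AAV9-GFP, with lines between roles. Clcn1 is the row with the cleanest split between groups, and Casq1, Slc8a1 and Cacna1g differ most between hearts of a group.

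Further calcium handling genes were taken from 2 lists that do not overlap with the module. Of 51 other channels, buffers and regulators, 43 had a cluster of their own, and none passed the adjusted threshold in limma, while at an unadjusted p below 0.05 there were 1 higher and 2 lower genes (median log2 difference -0.03). These counts are near what the shares of all clusters, 4.08% higher and 4.33% lower, would give in a list of that size, and the genes are named as a description. The 1 that was higher is Rrad, a small GTPase that inhibits the L-type channel, with 14.22, 14.19 and 14.05 in AAV9-Rbm24 hearts, against 13.26, 13.59 and 13.20 in AAV9-GFP hearts. Its groups did not overlap, and its log2 difference of 0.81 (standard error 0.13, 95% interval 0.51 to 1.11), or 1.75-fold, passed the thresholds of the methods but not the adjusted one (adjusted p = 0.07 from limma). The 2 that were lower are the striated muscle kinase Speg (log2 difference -0.41, adjusted p = 0.523 from limma) and Ank2 (-0.25, adjusted p = 0.582 from limma), which encodes the ankyrin that anchors the exchanger. Of 21 genes of adrenergic and phosphatase control, 15 had a cluster of their own and none passed the adjusted threshold in limma, while at an unadjusted p below 0.05 there was 1 gene in each direction (median log2 difference -0.12), again near the shares of all clusters. The higher one is Prkar1a, a regulatory subunit of protein kinase A, with 13.08, 12.95 and 13.44 in AAV9-Rbm24 hearts and 12.48, 12.37 and 13.01 in AAV9-GFP hearts (log2 difference 0.54, adjusted p = 0.497 from limma). The lower one is the cardiac adenylyl cyclase Adcy5 (log2 difference -0.38, adjusted p = 0.505 from limma). Speg, Ank2, Prkar1a and Adcy5 were named after their values were seen.

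**Figure D5:**
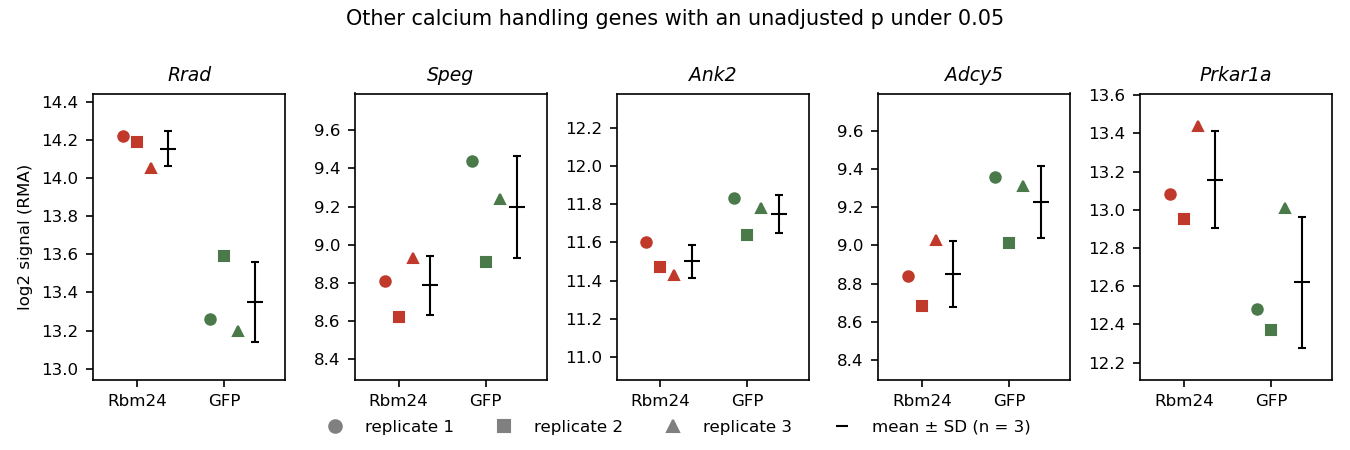
Log2 signals (vertical axis, RMA) of the 5 genes of the other calcium handling lists with an unadjusted p under 0.05 in limma, with 1 point per heart, AAV9-Rbm24 left of AAV9-GFP, and mean ± SD (n = 3). The 3 AAV9-Rbm24 hearts of Rrad lie between 14.05 and 14.22, all above the AAV9-GFP hearts, while Speg, Adcy5 and Prkar1a overlap between groups.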

How the data were processed

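Left ventricular RNA of 6 hearts was hybridised to 1-colour Affymetrix Mouse Transcriptome Array 1.0 arrays, 1 per heart. The deposited values are log2 signals of transcript clusters, for which the submitters' notes list RMA (background correction, normalization between arrays, probe summary) and Affymetrix Expression Console. The versions, the library file and the build were each not given in the sources used here. Of 72688 rows, 6732 controls were left out and 65956 clusters were tested without a filter. Clusters were named by GEO's platform annotation after symbols had been brought up to date with RefSeq (GRCm38.p6): 31292 clusters had 1 symbol, 1522 several (not named) and 33142 none. Groups and replicate numbers came from the sample titles. The comparison used lmFit and eBayes of limma 3.58.1 under R 4.3.3, with a prior of 3.77 degrees of freedom, and Benjamini-Hochberg adjustment over all clusters at 0.05. The procedure was tested on simulated data. RMA values carry no molecule counts, and precision is limited by how many arrays there are. The limma p-values set each difference against a spread between hearts that is moderated across all clusters.

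The members, the further gene lists and the rules were chosen with earlier results of these data known. All members were accounted for, and signals per heart are given for those past the thresholds of the methods, those whose groups did not overlap and a fixed set by role (Cacna1c, Ryr2, Atp2a2, Pln, Sln, Casq2, Slc8a1 and Camk2d). Signals per heart of the remaining genes so described were chosen after their values were seen. Of 7 endothelial and 7 smooth muscle and pericyte markers, 6 and 7 had a cluster and none was called in limma (0 and 1 at an unadjusted p under 0.05).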

Additional observations from a re-analysis of the deposited data

How the results depend on the processing

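The 15 alternatives were a minimum mean signal of 6, clusters with 1 symbol, an intensity trend, renewed quantile normalization, array median centring, array weights, a replicate block, analysis of variance, clusters averaged per gene, and each array left out. Of 519 values of single genes under them, 483 kept direction and side of the threshold, 32 turned in sign and 4, all of Clcn1, passed the threshold. The number of lower genes called was 0, but 1 (Clcn1) with a minimum signal of 6, clusters with 1 symbol, array weights and clusters averaged per gene. It was 0 without each array, and no gene was called higher under any alternative. At the thresholds of the methods the lower count was 1 to 2 with an array left out, 2 (Cacna1g and Clcn1) without AAV9-Rbm24 replicate 3, and the higher count was 0. At an unadjusted p under 0.05, a count followed over the alternatives after the data were seen, 5 genes were lower. There were 4 with array median centring (without Ryr2), 5 with the intensity trend and with analysis of variance, 6 with a minimum signal of 6, clusters of 1 symbol and clusters averaged per gene, 7 with the replicate block, 8 with renewed quantile normalization, 8 with array weights, and 4 to 7 with an array left out, where 3.16% to 5.64% of all clusters were lower. Higher genes numbered 0, but 1 (Atp2b1) with clusters of 1 symbol, the intensity trend, the replicate block and clusters averaged per gene, 2 (Cacna1d and Sri) with analysis of variance, and 0 to 1 with an array left out (1, Atp2b1, without AAV9-GFP replicate 3). The median of the genes ran from -0.13 to -0.043 over all alternatives.

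Genes that turned in sign differed by at most 0.12 except Casq1. With renewed quantile normalization the values were 0.04 for Ryr1, 0.04 for Atp2a1, -0.01 for Orai1 and -0.02 for Trpc1, with array median centring 0.02 for Ryr1 and 0.02 for Atp2a1, and with array weights 0.03 for Ryr1, -0.15 for Casq1, 0.01 for Atp2a1, 0.09 for Sln and -0.10 for Slc8a1. With each array left out in turn, values ran from -0.07 to 0.03 for Cacna1c, -0.04 to 0.05 for Ryr1, -0.14 to 0.01 for Ryr3, -0.16 to 0.01 for Itpr2, -0.01 to 0.11 for Fkbp1b, -0.60 to 1.18 for Casq1, -0.21 to 0.02 for Casq2, -0.04 to 0.03 for Atp2a1, -0.12 to 0.05 for Atp2a3, -0.12 to 0.10 for Sln, -0.22 to 0.45 for Slc8a1, -0.01 to 0.05 for Orai1 and -0.13 to 0.21 for Trpc1. The cause was not tested.

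Deviations of same-numbered arrays correlated at 0.03, 0.10 and 0.15 over all clusters, and those of arrays with different numbers at -0.122 to 0.033. AAV9-Rbm24 replicates 2 and 3 correlated best with their own number, and replicate 1 did not. The sample titles give only the numbers, and whether same-numbered hearts share a batch was not tested. With the replicate block 0 genes were called in either direction, 1 was lower at the thresholds of the methods and 7 at an unadjusted p under 0.05 (adjusted p of Clcn1 = 0.114 from limma), and the median of the genes was -0.086. Fewer arrays also leave less power, and ceiling and dim signals limit what can be seen of Atp2a2, Pln and the 6 dimmest genes.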

Other observations

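Lrrc10, a leucine-rich repeat protein of cardiomyocytes taken from the further calcium handling list and chosen after its values were seen, had signals of 13.93, 14.13 and 12.55 in AAV9-Rbm24 hearts and 13.78, 13.80 and 13.94 in AAV9-GFP hearts (log2 difference -0.30, adjusted p = 0.875 from limma). The low heart is AAV9-Rbm24 replicate 3, the heart with the highest Casq1 signal.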
